A study of Mus musculus with 6 samples.

Results

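Chromatin accessibility at 10 genes of the G1 control of the cell cycle was examined in transformed mouse blood progenitors that had or lacked C/EBPα and C/EBPβ, which are transcription factors of the myeloid lineage. The genes were the CIP/KIP inhibitor genes Cdkn1a, Cdkn1b and Cdkn1c, the INK4 inhibitor genes Cdkn2a, Cdkn2b and Cdkn2c, the D cyclin genes Ccnd1, Ccnd2 and Ccnd3, and the kinase gene Cdk6. A region was assigned to a gene where it overlapped the GENCODE M21 (mm10) gene body or the 50 kb on either side. By this rule 8 of the 10 genes had at least 1 region in the deposited table of changed regions, with 23 distinct regions of the 10016 listed. Of 21755 protein-coding genes, 47.5% had a listed region by the same rule.

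ATAC-seq uses the Tn5 transposase to cut and tag open DNA, so the reads over a region measure its accessibility. All groups were fetal liver cells transformed with the fusion oncogene MLL-ENL and grown with IL-3. WT cells kept Cebpa and Cebpb (2 samples, no vector named in their labels). The dKO cells were Cebpa KO and Cebpb KO and carried a GFP vector (2 samples), and the dKO-LAP* cells (2 samples) had the same deletions and carried the rat C/EBPβ isoform LAP*, with GFP. The knockout lines were clones that survived deletion, so genotype, vector and clone cannot be told apart in the comparison of dKO with WT. The values of dKO-LAP* were not analysed here.

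The deposited table gave 1 value per group and region, the log2 of the mean normalised reads over 2 libraries, and listed only regions past the authors' corrected p-value threshold of 0.05. It held no value per library, so that no standard deviation or test of a single region could be computed, and a region that is not listed may still differ by a smaller amount. The depth of each sample was not in the table either. Changes are given as dKO minus WT on the log2 scale. In a bulk sample, a larger share of cells with an open region and a region more open in each cell cannot be told apart. The deleted genes behaved as their labels state. The region over Cebpa went from a log2 level of 9.99 in WT to -0.15 in dKO, the level of 1 read in each library. The regions at Cebpb went from 8.60 to 3.37 and from 7.38 to -0.15.

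In the G1 phase, D cyclins bind CDK4 and CDK6, and the active kinases phosphorylate the retinoblastoma protein, which frees E2F factors to switch on genes of DNA synthesis. INK4 proteins bind CDK4 and CDK6 and keep D cyclins off, while CIP/KIP proteins bind complexes of cyclin and kinase, including those of CDK2. C/EBPα is known for halting the proliferation of myeloid progenitors as they differentiate, and CDK6 has been studied as a dependency of leukemias with MLL fusions.

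Of the 23 regions, 18 were higher and 5 lower in dKO. That is 78.3% higher (Wilson 95% interval from 58.1% to 90.3%, counting error only), where 60.3% of all listed regions were higher and 39.7% were lower. Regions of 1 gene are not independent, and 14 of the 23 lay at Cdk6. At least 2-fold changes were fewer than among all listed regions. They made up 60.9% of the 23, against 85.5% of the 10016, and 77.8% of the 9 regions outside Cdk6. Of the 23 regions, 10 were higher by at least 2-fold (49.6% of all listed) and 4 were lower by at least 2-fold (35.9% of all listed). The median change was 0.76 at the 10 genes and 0.98 over all listed regions. Subtracting that median of 0.98 from every region left 43.5% of the 23 higher, where by construction 50% of all listed regions are then higher. The median of the higher of the group levels was 6.99 at the 10 genes and 6.11 over all listed regions. Among other listed regions, 68.1% were higher in dKO where that level was at least 7, and 57.8% where it was under 7. The median GC content was 48.5% at the 10 genes against 49.0%. Within 1 kb of the transcription start of a coding gene lay 13.0% of the 23 regions, against 14.9% of all listed regions.

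**Figure D1:**
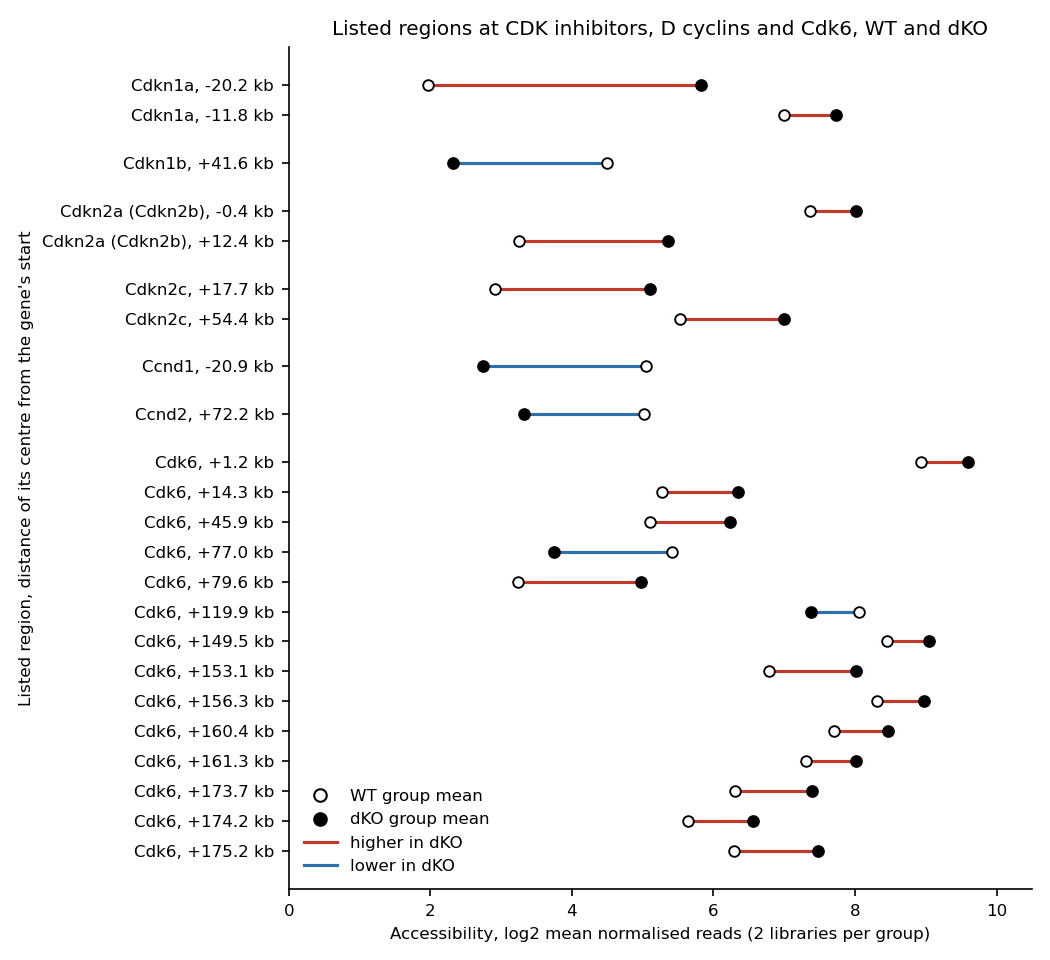
Accessibility of the 23 listed regions in WT (open circles) and dKO (filled circles), as log2 mean normalised reads over 2 libraries per group, with no error because the table has none. Each row is 1 region, named by the gene and the distance of its centre from the gene's start. Cdkn2a and Cdkn2b share their 2 regions. Of the regions, 18 were higher in dKO (red lines) and 5 lower (blue lines), and the largest change was the rise at Cdkn1a from 1.96 to 5.83.

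Cdkn1a encodes p21, a CIP/KIP inhibitor and a classical target of p53. It had the largest change among the 23 regions. The region at chr17:29070583-29070982, upstream of the gene (chr17:29090976-29100727, plus strand), went from 1.96 in WT to 5.83 in dKO. This is a rise of 3.87, or 14.6-fold, from 3.89 to 56.9 normalised reads. The region lay 19997 bp upstream of the start of the transcript Cdkn1a-202, in an intron of Trp53cor1, the gene of the noncoding RNA lincRNA-p21. A start of Trp53cor1 was closer, at 1360 bp. The second region, chr17:29078888-29079385, lay over a start site of Trp53cor1 and went from 7.0 to 7.73, a rise of 0.73, which is below the median change of all listed regions. No region over the Cdkn1a promoter itself was listed. The middle of the region that rose the most is shown because it carries that change (mm10, chr17:29070733-29070832, plus strand, no capitals, since no searched string lay in it).
Cdkn1a upstream region: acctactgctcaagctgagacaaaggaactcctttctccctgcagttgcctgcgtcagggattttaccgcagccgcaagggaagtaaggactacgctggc

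Cdkn1b encodes p27, the CIP/KIP inhibitor that holds quiescent cells out of the cycle. Its only listed region, chr6:134961891-134962102, was lower in dKO, at 4.49 in WT and 2.32 in dKO, a change of -2.17. It lay outside annotated genes, 41378 bp downstream of the start of a coding Cdkn1b transcript, and the start of Apold1 was closer, at 19616 bp. The gene itself (chr6:134920401-134925513, plus strand) held no listed region. Cdkn1c, which encodes p57 (chr7:143458339-143461050, minus strand), had no listed region in its window. Within 100 kb there were 2, chosen for mention after their values were seen. One in an intron of Kcnq1 rose from 4.90 to 6.12, and the other, over Cars, fell from 5.54 to 2.17.

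Cdkn2a encodes p16INK4a and, from an upstream first exon in another reading frame, p19ARF, which acts on p53 through MDM2. Both of its start sites lay in regions that were higher in dKO. The region over the p16INK4a start, chr4:89282019-89282475, went from 3.25 in WT to 5.36 in dKO, a rise of 2.11 or 4.32-fold. The region over the p19ARF start, chr4:89294421-89295732, went from 7.37 to 8.02, a rise of 0.65 or 1.57-fold. The p19ARF region had the higher level of the 2 in both groups, was wider (1312 against 457 bp), and had the smaller change. This second rise is below the median change of all listed regions and turns into a fall when that median is subtracted.

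The promoter stretches are printed because the start sites lie in these regions (mm10, 5′ to 3′ on the minus strand, the strand of the gene). Each ends just before the transcription start of a coding transcript, and CpG dinucleotides are in capitals. The first, chr4:89282193-89282442, holds 7 CpG in 250 bases. The second, chr4:89294654-89294869, holds 35 CpG in 216 bases.
p16INK4a promoter: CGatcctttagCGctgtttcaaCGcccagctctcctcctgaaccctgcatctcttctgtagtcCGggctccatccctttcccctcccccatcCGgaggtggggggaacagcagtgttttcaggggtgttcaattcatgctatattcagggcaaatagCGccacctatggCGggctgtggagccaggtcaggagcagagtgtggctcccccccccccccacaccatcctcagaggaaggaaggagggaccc
p19ARF promoter: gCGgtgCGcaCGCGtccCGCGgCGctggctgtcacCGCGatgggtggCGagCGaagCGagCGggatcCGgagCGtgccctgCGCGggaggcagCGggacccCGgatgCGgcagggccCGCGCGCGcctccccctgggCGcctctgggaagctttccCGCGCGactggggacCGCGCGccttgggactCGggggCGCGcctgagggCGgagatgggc

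Cdkn2b, the neighbouring gene for p15INK4b (chr4:89306299-89311039, minus strand), shares these same 2 regions and has no others. They lay 28564 and 15307 bp downstream of its start, and no region over its own promoter was listed, so they are no separate evidence for Cdkn2b. Cdkn2c encodes p18INK4c, an INK4 protein of developing blood cells (chr4:109660876-109667189, minus strand). Both of its regions were higher in dKO and lay in introns of the gene model Gm12811. The region at chr4:109649351-109649627 went from 2.91 to 5.11, a rise of 2.20 or 4.6-fold. It lay 15745 bp downstream of the start of a coding Cdkn2c transcript, and the start of 9630013D21Rik was closer, at 4504 bp. The region at chr4:109612570-109612996 went from 5.52 to 6.99, a rise of 1.47 or 2.77-fold. It lay 52376 bp downstream of that Cdkn2c start, and the start of Gm12803 was closer, at 16586 bp. The 4 distinct INK4 regions were thus all higher in dKO, where 60.3% of all listed regions were higher. Their median change was 1.79, although the one over the p19ARF start turns to lower when the median of all listed regions is subtracted. Of the 3 CIP/KIP regions, 2 were higher and 1 lower, and the smaller rise at Cdkn1a turns in the same way.

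The nearer Cdkn2c region is shown for the AP-1 string TGACTCA at its centre, which shares its last base with a PU.1 string (GAGGAAGT, here on the other strand). Capitals mark the joined strings (mm10, chr4:109649465-109649524, plus strand).
Cdkn2c downstream region: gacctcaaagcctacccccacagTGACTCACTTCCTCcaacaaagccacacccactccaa

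D cyclins carry growth signals to CDK4 and CDK6. The 2 listed regions at D cyclin genes were both lower in dKO by more than 2-fold. Of all listed regions, 35.9% were lower by at least 2-fold, and a difference between the classes was not tested. The Ccnd1 region, chr7:144960684-144960989, went from 5.04 in WT to 2.75 in dKO, a change of -2.29. It lay outside annotated genes, 20759 bp upstream of the nearest Ccnd1 start (chr7:144929931-144939925, minus strand). The Ccnd2 region, chr6:127079856-127080165, went from 5.02 to 3.32, a change of -1.70. That region lay over an exon of Fgf23, whose start was 6954 bp away. It was 70842 bp downstream of the start of a coding Ccnd2 transcript (chr6:127125162-127152193, minus strand), so only its distance ties it to Ccnd2. Ccnd3 (chr17:47505051-47599691, plus strand) had no listed region in its window of 194.6 kb, nor within 100 kb. The Ccnd1 region is shown for its central PU.1 string, in capitals (mm10, chr7:144960807-144960866, plus strand).
Ccnd1 upstream region: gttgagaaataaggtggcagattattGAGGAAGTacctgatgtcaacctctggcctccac

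**Figure D2:**
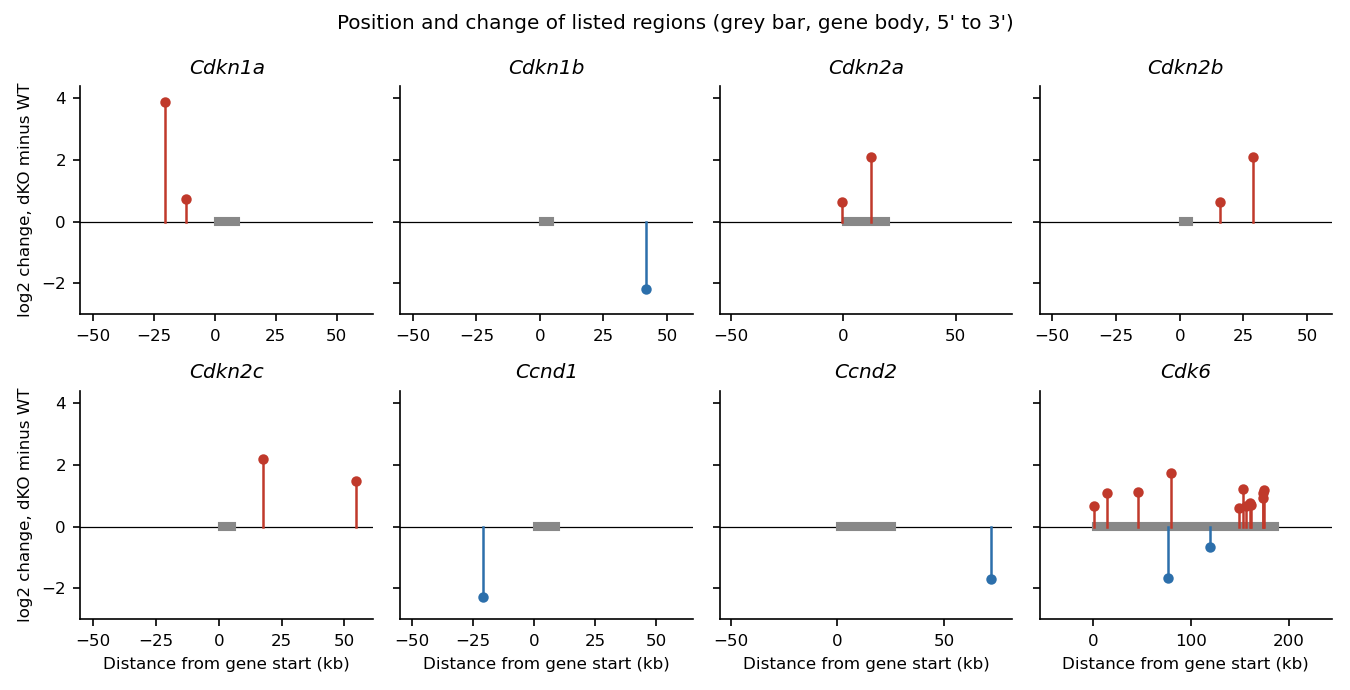
Log2 change (dKO minus WT) of each listed region against the distance of its centre from the gene's start in kb, read 5′ to 3′, for the 8 genes with a listed region. Grey bars are gene bodies, red points were higher and blue points lower in dKO. Cdkn2a and Cdk6 have regions inside the gene, while the regions of the other genes lie outside it. The Cdk6 panel has its own distance scale, with 8 neighbouring regions near the end of the gene, and its balance of higher over lower regions turns to lower when the median change of all listed regions is subtracted.

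Cdk6 (chr5:3341485-3531008, plus strand) had 14 listed regions, all inside the gene. Of these, 12 were higher and 2 lower in dKO, with a median change of 0.84. After the median of all listed regions was subtracted, 6 of the 14 were higher and 8 lower, so the direction of Cdk6 depends on that scaling. The number of regions was high for a gene of this size. Among the 1054 other coding genes with a window of similar length (from 80% of that of Cdk6 to longer by the same ratio), the median was 1 listed region and the highest number was 12. Over all coding genes, 4 had as many as Cdk6 or more, Cdk6 included, and the highest number was 52. The share that was higher was not unusual among genes with many regions. Of 17 coding genes with at least 10 listed regions, the median share higher was 80%, and 6 of them, Cdk6 included, reached its 85.7%.

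The region at the Cdk6 promoter, chr5:3341901-3343460, had the highest level of the 23, at 8.93 in WT and 9.59 in dKO, a rise of 0.66. Levels are reads over a whole region, not corrected for its width, and this was also the widest of the 23, at 1560 bp. It lay 272 bp from the start of a coding Cdk6 transcript. The 4 largest rises were inside the gene. They were 1.74 at chr5:3420923-3421182, from 3.24 to 4.98, and 1.22 at chr5:3494404-3494705, from 6.79 to 8.01. The other two were 1.18 at chr5:3516318-3517131, from 6.29 to 7.47, and 1.13 at chr5:3387204-3387541, from 5.10 to 6.23. Both falls lay in the middle of the gene. One region, chr5:3418325-3418608, went from 5.41 to 3.75, a change of -1.66, within a few kb of the largest rise. The other, chr5:3460928-3461788, went from 8.05 to 7.38, a change of -0.67. The remaining 7 regions rose by 0.60 to 1.09.

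A run of 8 of the 14 regions spanned 26.7 kb near the end of the gene, beginning 148.9 kb from the most upstream start and ending 13.9 kb before the gene's end. All 8 were higher in dKO, by 0.60 to 1.22 with a median of 0.84, of which 5 rose by less than the median of all listed regions, from WT levels between 5.64 and 8.45. The run was noticed after the values were seen, and its density was not tested. Much of Cdk6 was at high levels, where listed changes were smaller throughout the table. Only regions past the corrected p-value threshold are listed, so small changes at low levels may be left out, which was not tested. Of the 9 Cdk6 regions whose higher group mean was at least 7, 33.3% changed at least 2-fold, with a median absolute change of 0.70. Among the 2341 other listed regions at that level it was 50.4%, with a median absolute change of 1.0, and among other listed regions at lower levels it was 96.3%.

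**Figure D3:**
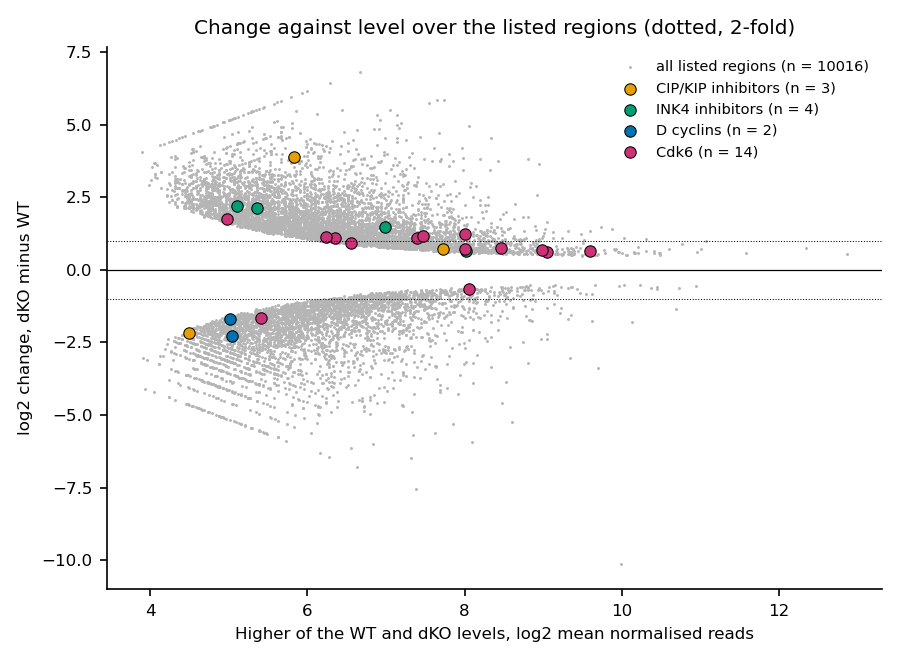
Log2 change (dKO minus WT) against the higher of the WT and dKO levels (log2 mean normalised reads) for all 10016 listed regions (grey) and the 23 regions of the 10 genes (coloured by class). Dotted lines mark 2-fold. Cdk6 regions sit at higher levels, with a median of 7.74 against 6.11 for all listed regions, and 7 of the 14 changed by less than 2-fold, while the Cdkn1a rise of 3.87 lies above the other 22.

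Strings of known transcription factors were searched in the central 200 bp of each region on both strands. The C/EBP strings were TTGCNNAA and TTACNNAA, of which each can overlap the other on the opposite strand. They were found in 4 of 23 regions (17.4%), all at Cdk6, and in 28.4% of all listed regions. Over whole regions they were in 8 of 23 (34.8%), including a Cdkn2c region, against 42.9% of all listed regions. TTGCNNAA alone was in the centre of 8.7% of the 23, and its share over all listed regions is not given here. In the whole table the share with either C/EBP string at the centre was 40.8% among regions that fell and 20.1% among those that rose. At the 10 genes it was 2 of 5 that fell and 2 of 18 that rose. Both falls at Cdk6 held a C/EBP string and the falls at Cdkn1b, Ccnd1 and Ccnd2 held none. AP-1 strings (TGACTCA) were in 3 of 23 (13.0%) and in 17.9% of all listed regions. All 3 were higher in dKO, which is 16.7% of the 18 that rose, against 26.7% of all listed regions that rose and 4.7% of all that fell. PU.1 strings were in 3 of 23 (13.0%) and in 9.2% of all listed regions. They were in 2 of the 18 that rose and 1 of the 5 that fell, against 13.1% and 3.3% of all listed regions that rose and fell. RUNX strings (AACCACA) were in 0 of 23, and in 11.9% of all listed regions. Over whole regions they were in 3 of 23, all at Cdk6, against 19.3% of all listed regions. A match is a description of the letters only, and its part in the changes was not tested.

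The Cdk6 regions with a C/EBP string at the centre, and 1 further region with AP-1 and PU.1 strings, are printed to let both directions be compared. They were chosen after their values and strings were seen. Capitals mark the strings (mm10, plus strand). The first 2 were lower in dKO and lie at chr5:3418440-3418559 and chr5:3461309-3461368. The first carries TTACATAA at 2 places.
Cdk6 fall 1: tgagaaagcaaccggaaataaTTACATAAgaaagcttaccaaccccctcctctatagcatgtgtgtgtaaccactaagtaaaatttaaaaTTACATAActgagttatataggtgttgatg
Cdk6 fall 2: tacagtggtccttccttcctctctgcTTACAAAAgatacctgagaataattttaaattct

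The 3 regions that were higher in dKO lie in the run at chr5:3494507-3494626, chr5:3502788-3502847 and chr5:3515129-3515188. The first holds an AP-1 and a C/EBP string, the second a PU.1 and an AP-1 string, and the last a C/EBP string.
Cdk6 rise 1: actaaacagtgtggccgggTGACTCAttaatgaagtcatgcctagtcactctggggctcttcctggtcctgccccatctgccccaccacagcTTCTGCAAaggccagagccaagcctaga
Cdk6 rise 2: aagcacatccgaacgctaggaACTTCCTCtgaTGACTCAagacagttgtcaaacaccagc
Cdk6 rise 3: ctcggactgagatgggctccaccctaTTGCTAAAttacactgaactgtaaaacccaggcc

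Listed regions near each gene were counted because neighbours can share a direction. Around Cdkn2a and Cdkn2b, 83.3% of the 12 other listed regions within 5 Mb were higher, and around Cdk6 68.8% of 16. Cdk6 lies in the first of 5 equal parts of chromosome 5, where 72.6% of the other listed regions were higher. The Cdkn1a surroundings were at 61.0% of 77. At Cdkn2c the surroundings went the other way, with 34.8% of 46 higher, while both of its own regions rose. At Cdkn1b, Ccnd1 and Ccnd2, whose single regions fell, 43.8%, 40.5% and 53.5% were higher. Around Cdkn1c and Ccnd3 the shares were 36.7% and 45.1%. The part of the surroundings in these results was not tested.

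**Figure D4:**
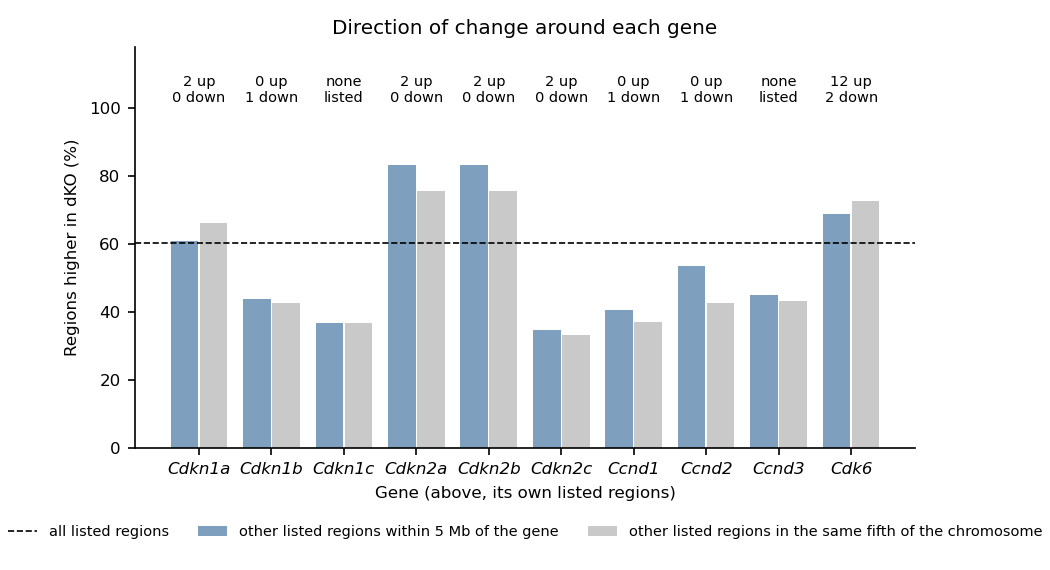
Share of other listed regions higher in dKO (percent) within 5 Mb of each gene (blue bars) and in the same of 5 equal parts of its chromosome (grey bars), with the 60.3% of all listed regions as a dashed line. The gene's own regions are written above the bars as counts before any centring, which would turn the balance at Cdk6. The Cdkn2a and Cdkn2b surroundings are the highest at 83.3%, and those of Cdkn2c the lowest at 34.8%.

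Of 35 other cell cycle genes, mitotic ones included, 20 had a listed region by the same rule and 15 had none. That compares with 47.5% of 21755 protein-coding genes. By direction, 13 of the 35 genes had higher regions only, 2 lower only, and 5 both. Together they held 44 distinct regions, of which 35 were higher in dKO (79.5%, where all listed regions give 60.3%). Of the 44 regions, 14 lay on chromosome 10, at 5 genes, and 82.0% of all listed regions on that chromosome were higher. Off it 22 of 30 were higher (73.3%). With the median of all listed regions subtracted, 56.8% of the 44 were higher, against 50% of all listed regions. Only 1 region lay inside a gene of the list, that in E2f2, a rise of 0.63, so most belong to the surroundings of these genes rather than to the genes.

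The genes with the most regions were spread over the list. Rb1, which encodes the retinoblastoma protein, had 6 regions, 3 higher and 3 lower, from -2.02 to 1.98. With the median of all listed regions subtracted, 2 of the 6 at Rb1 were higher. Its largest change was a fall from 4.78 to 2.76. E2f6, which encodes a repressive E2F, had 4 regions, all higher, by up to 2.09, the largest from 3.34 to 5.43 nearest to Rock2. Fzr1, an activator of the anaphase-promoting complex, had 4, all higher, by 0.59 to 1.05, of which 1 stayed higher after the median was subtracted. Cdk4, the partner kinase of Cdk6, had 3, all higher (2 after subtraction), with the largest from 3.46 to 7.16 in an intron of Os9. Mdm2, the ubiquitin ligase of p53, had 3, 2 higher and 1 lower, with the largest from 4.18 to 6.37. Cdc25c, a phosphatase that activates CDK1, had 3, all higher, with the largest from 1.73 to 4.32 in an intron of Kdm3b.

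**Figure D5:**
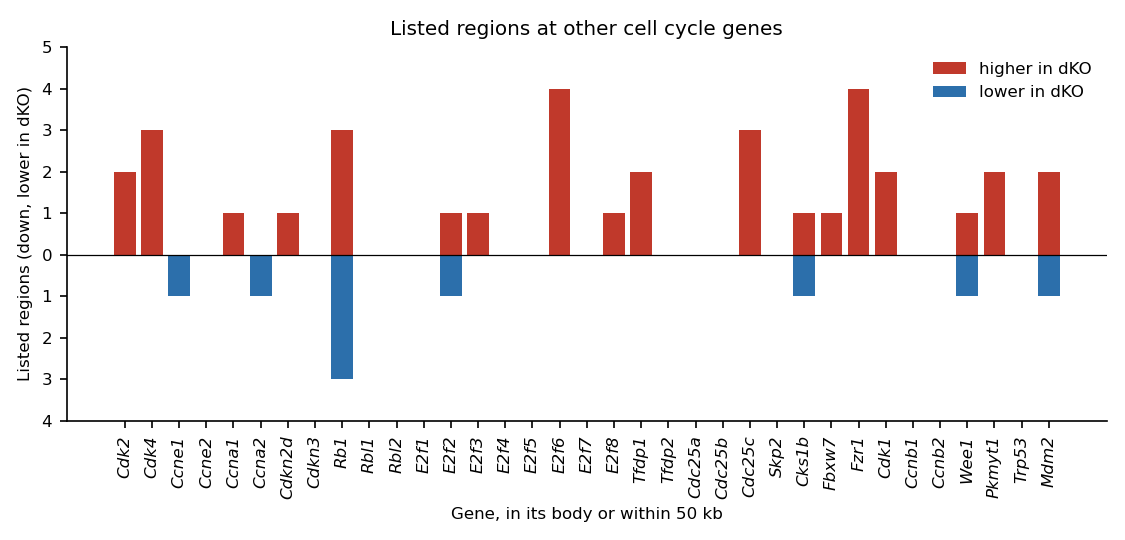
Number of listed regions in the body or within 50 kb of each of the 35 other cell cycle genes, with regions higher in dKO drawn upward and those lower drawn downward. Rb1 has the most, with 3 in each direction before any centring, and 15 genes have none.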

How the data were processed

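The authors sorted 50000 cells per sample, tagged open chromatin with Tn5 and sequenced it. Per the labels and the study's methods, reads were processed with PiGx, aligned to mm10 with Bowtie2, peaks were called with MACS2 and groups compared with DiffBind 2.14.0, with 0.05 as the cutoff for corrected p-values. How duplicates and the Tn5 offset were treated is not given in the sources used here. Kept duplicates would raise the levels of strongly amplified regions, and a missing offset would shift region edges by a few bases.

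The authors' deposited table holds, per region, log2 mean normalised reads for WT and for dKO. It also holds a fold change, a p-value and a false discovery rate that the authors deposited, of which the last was read only to check that all 10016 listed regions were at or under 0.05. Their fold changes and p-values were not used. The 2 files held 1 distinct table, with no columns for dKO-LAP*, which was not analysed here. The planned test per library could not be run, since there are no values per library.

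Changes were computed as the dKO minus the WT value. Genes came from GENCODE M21, with coordinates counted from 1. Scripts used Python 3.11.15, pandas 2.3.3 and pysam 0.24.0, and were tested on simulated data. Members and lists were chosen with earlier results of these data known. All 10 genes are named with all regions up to 8 per gene. For Cdk6, the 4 largest rises, both falls and the promoter region are named. Of the other cell cycle genes, the 6 with the most regions are named. The run at Cdk6 (the last regions with no gap over 15 kb), the level of 7, the 5 Mb surroundings, the 5 parts of each chromosome and the window sizes near that of Cdk6 were chosen after the data were seen. The floor was 3 reads (log2 1.43), and 0 regions of the 10 genes lay at it. Sequences were read from the mm10 genome.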

Additional observations from a re-analysis of the deposited data

How the results depend on the processing

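The number of regions, their share higher, their share changed at least 2-fold, the median change and the share with a C/EBP string were recomputed with other windows (gene body, 10 kb and 100 kb), with regions given only to the gene with the nearest start, with low-level regions left out, with other folds and strings, and after centring on the median change of all listed regions. Centring gave 43.5% higher (50% of all listed regions by construction), 34.8% changed at least 2-fold and a median of -0.22. It also turned Cdk6 from 10 more higher than lower regions to -2, while Cdkn1a, Cdkn2a and Cdkn2b went to 0. The table lists changed regions alone, so that its median is not a measure of unchanged chromatin. At a threshold of 1.5-fold, 100% of the regions passed, as did 99.3% of all listed regions, so that this threshold says nothing about these genes. Without the regions at Cdk6, an alternative added after the data were seen, 9 regions remained, 66.7% of them higher and 77.8% changed at least 2-fold, with a median of 0.73, and 0.0% held a C/EBP string in the central 200 bp. Over the other alternatives the share higher ranged from 76.0% with 100 kb to 88.2% without low-level regions. The share with a C/EBP string was 34.8% over whole regions, against 42.9% of all listed regions. It was 8.7% with TTGCNNAA alone, for which no share over all listed regions is given. With the gene body alone, 16 regions were left, all at Cdk6 and Cdkn2a. No paired analysis was possible because only group means were deposited, and leaving out a replicate was not run for the same reason. The table holds neither values per library nor the depth, so the precision of a single change is unknown.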
